A study of Glycine max with 6 samples.

Results

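Strongly enriched regions of the soybean genome were those in which chromatin immunoprecipitation and sequencing (ChIP-seq) of the protein GLYMA.04G093300 gave a high signal in every library. Peak intervals of 4 libraries were merged where they shared at least 1 base. A merged region was kept when it held a peak in all 4 libraries and its highest fold enrichment was at least 8 in each of them. This gave 1156 regions of 15473 with a peak in all 4 libraries (7.47%) and of 64222 merged regions in all (1.80%). The fold enrichment that chose them is described below and was not tested. The other 14317 regions with a peak in all 4 libraries are called the other shared regions and serve for comparison.

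Libraries were made from embryos of the soybean cultivar Williams 82 at early maturation, dissected from seeds, with no treatment and no genetic change named in the labels. Antibody Ab1 (anti-peptide 1) and antibody Ab2 (anti-peptide 2), raised against different peptides of the same protein, were each used on 2 biological replicates, and 2 further libraries were input, total chromatin without antibody. Of these 6 libraries the 4 immunoprecipitated ones had a peak list that was used here. An immunoprecipitate with an unrelated antibody was not analysed here, so DNA held by the protein and DNA that the antibodies precipitate without it cannot be told apart. Printed positions are the bounds of merged regions and the summits, counted from 1, in the coordinates of the deposited lists. The sources used here do not name the genome build of these lists, and the regions were therefore not assigned to genes.

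In ChIP-seq, proteins are fixed to DNA, the chromatin is sheared, and fragments that carry the protein are collected with an antibody and sequenced. Fragments from a bound place overlap, so that their pile-up has a top, the summit, close to the place of contact. Fold enrichment compares the fragments at the summit with the local background estimated from input. Early maturation is the phase in which the embryo turns from cell division to the storage of protein and oil, and much of that change is driven by DNA-binding regulators of seed genes. In bulk embryo chromatin, a higher fold from more cells with the protein bound and one from more binding per cell cannot be told apart.

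The strongly enriched regions had many more fragments at the summit than the other shared regions, over a background of nearly the same level. In Ab1 replicate 1 the median was 77 fragments in the strongly enriched regions and 43 in the other shared regions. In Ab1 replicate 2 the medians were 83 and 47 fragments, in Ab2 replicate 1 they were 41 and 22, and in Ab2 replicate 2 they were 35 and 19. The lowest number of fragments behind any strongly enriched region was 41, 55, 26 and 25 in the same order of libraries. Background at the summit had medians of 4.58 fragments in strongly enriched regions and 4.60 in the other shared regions in Ab1 replicate 1, and 6.63 and 6.81 in Ab1 replicate 2. In the Ab2 libraries it was 2.73 and 2.50 in strongly enriched regions, against 2.88 and 2.69 in the other shared regions. Medians of the pile-up thus differed more than those of the background. Several of the regions named below shared the same lowest background, such as 2.22 fragments in Ab2 replicate 2 and 5.85 in Ab1 replicate 2. These values lie close under the medians and left the background little room to fall, so its part was not weighed against that of the pile-up. Both fragments and background enter the fold enrichment that chose the regions, so they are a description.

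Median fold enrichment in the strongly enriched regions was 13.4 in Ab1 replicate 1, 10.47 in Ab1 replicate 2, 10.8 in Ab2 replicate 1 and 9.95 in Ab2 replicate 2. In the other shared regions it was 7.38, 5.79, 5.75 and 5.40 in the same order. The highest values within the strongly enriched regions were 27.4, 22.2, 22.7 and 23.3. The fold enrichments were computed by the authors' peak caller within each library and do not rank the libraries.

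**Figure D1:**
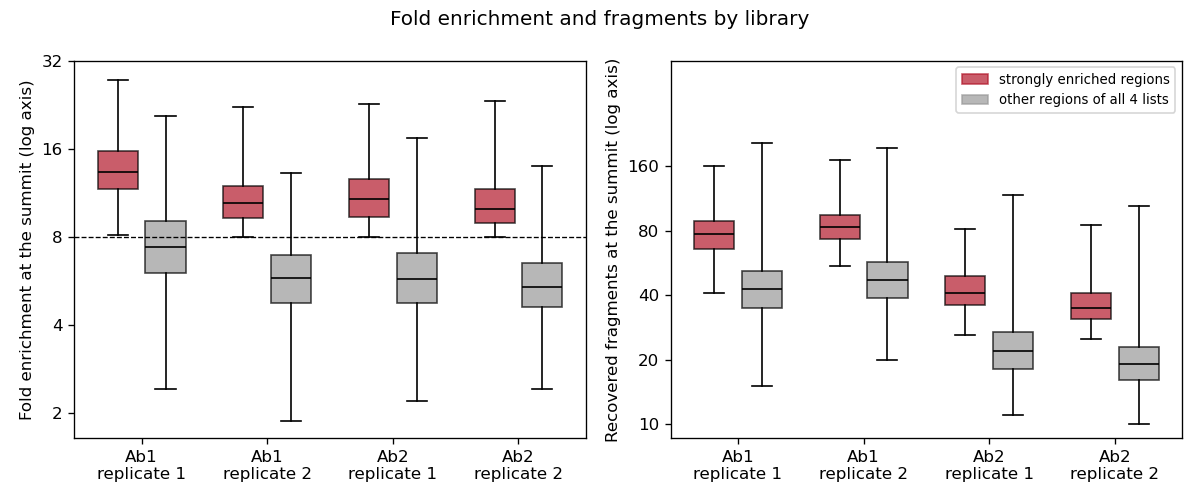
Fold enrichment (left, log axis) and recovered fragments (right, log axis) at the summit in each library, for the 1156 strongly enriched regions (red) and the 14317 other shared regions (grey). Boxes span the quartiles with the median as a line, whiskers reach the lowest and highest value, and the dashed line is the fold of 8 that chose the regions; the red medians are 77, 83, 41 and 35 fragments, against grey medians of 43, 47, 22 and 19.

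A fixed fold of 8 was not equally strict in the 4 lists. Of the shared regions, 44.1% reached it in Ab1 replicate 1, 18.5% in Ab1 replicate 2, 19.8% in Ab2 replicate 1 and 13.8% in Ab2 replicate 2. Ab2 replicate 2, the shortest list with 21291 peaks, gave the lowest of the 4 folds in 488 strongly enriched regions (42.2%). Ab1 replicate 1, the longest list with 59261 peaks, did so in 33 (2.85%). A further 1032 shared regions reached the fold of 8 in 3 lists, and the list that fell short was Ab2 replicate 2 in 500 of them, Ab2 replicate 1 in 301, Ab1 replicate 2 in 215 and Ab1 replicate 1 in 16. The missing fold had a median of 6.93 where it was that of Ab2 replicate 2 and 7.42 where it was that of Ab1 replicate 1, so the library that fell short was usually not far below 8. Within the strongly enriched regions the highest of the 4 folds was a median of 1.44 times the lowest, against 1.61 times in the other shared regions. The rule puts a floor of 8 under the lowest fold of strongly enriched regions only, so this ratio is a description. The ranks of the 1156 folds correlated between libraries at a Spearman rho of 0.632 for the replicate 1 pair of Ab1 and Ab2 and of 0.550 for the replicate 2 pair. Between the replicates of Ab1 rho was 0.476 and between those of Ab2 it was 0.423. These are correlations across regions, whose range the rule restricts, and same-numbered libraries come from 1 biological replicate.

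The regions at the border differed little. Just inside lay chr17:5443962-5444914, with folds of 12.6 and 8.01 in the Ab1 replicates and 9.23 and 10.9 in the Ab2 replicates. The next inside were chr5:39212880-39213662 and chr17:11346043-11346833, both with a lowest fold of 8.01, in Ab2 replicate 2. Just outside lay chr4:4845623-4846466 and chr2:41024270-41025024, both at 7.99 in Ab2 replicate 2, and chr13:19975080-19975466 at 7.98 in Ab2 replicate 1. Of the 1156 regions, 519 had a lowest fold between 8 and 9, and 870 shared regions had one between 7 and 8.

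A few regions reached the fold of 8 in 3 lists and stood far below it in the remaining one. The region chr1:5571941-5572714 had folds of 13.7 and 8.20 with Ab1, and of 8.34 in Ab2 replicate 1 and 3.60 in Ab2 replicate 2. Its background in that library was 4.83 fragments, against a median of 2.69 in the other shared regions. The region chr12:8076210-8077383 had 13.7 in Ab1 replicate 1 and 4.02 in Ab1 replicate 2, with 10.8 and 8.15 in Ab2 replicates 1 and 2. There too the background was high in the library of the low fold, at 11.3 fragments in Ab1 replicate 2 against a median of 6.81. The third, chr18:57966993-57967538, had 12.01 and 8.86 with Ab1 and 11.1 and 4.07 with Ab2. Its low value rested on 14 fragments in Ab2 replicate 2 over a background of 2.69.

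How far a fold of at least 8 in some libraries held in the others was read among the shared regions. These have a peak in all 4 libraries by definition, so only the fold in the libraries read was left out of the choice. Ab1 and Ab2 libraries of the same number come from 1 biological replicate, and the series holds 2 input libraries for these 4. Folds read with one antibody are therefore not independent of those that chose with the other. Of the 2469 shared regions with a fold of at least 8 in both Ab1 libraries, 1156 also reached it in both Ab2 libraries, or 46.8% (95% Wilson interval 44.9 to 48.8). Over all shared regions the share was 9.05%. Chosen by both Ab2 libraries instead, 1156 of 1401 regions also reached the fold in both Ab1 libraries, or 82.5% (80.4 to 84.4), against 16.0% of all shared regions. Chosen by both libraries of replicate 1, 40.9% (39.1 to 42.8) reached the fold in both libraries of replicate 2, against 10.1% of all shared regions. The reverse choice gave 73.7% (71.4 to 75.8), against 18.2%. These shares depended on single libraries, which were left out of the fold rule while the shared regions stayed the same. The first was 20.1% without Ab1 replicate 2 and 67.1% without Ab2 replicate 2, against 9.05 and 19.8% of all shared regions. The second was 54.2% without Ab2 replicate 2, against 16.0%. The shares follow in part from how many regions pass in each list, since the same 1156 regions stand over bases of 1401 to 2823.

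Taken over all regions chosen by one antibody, whether or not they reached 8 with the other, the median fold with the other antibody was above that of the regions not chosen. Those chosen with Ab1 had median folds of 9.06 and 8.42 in Ab2 replicates 1 and 2, against 5.59 and 5.25 in the shared regions not so chosen. Those chosen with Ab2 had 13.1 and 9.94 in Ab1 replicates 1 and 2, against 7.37 and 5.75. A peak in the other antibody's lists was nearly always present. Counting merged regions whether or not they were shared, 2480 had a fold of at least 8 in both Ab1 lists, of which 2469 (99.6%) held a peak in both Ab2 lists and 0 held one in neither. All 1401 chosen with Ab2 held a peak in both Ab1 lists.

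The 10 strongly enriched regions with the highest lowest fold were spread over 9 chromosomes. First was chr8:6830607-6831228, with folds of 22.9 and 22.2 in the Ab1 replicates and 20.6 and 19.9 in the Ab2 replicates. These rested on 120, 154, 72 and 63 fragments. Its lowest fold, in Ab2 replicate 2, was the highest among all 1156 regions, and its summits spanned 63 bp. Next was chr11:7351004-7351618, where Ab1 replicate 1 gave the highest fold of all strongly enriched regions, 27.4, and Ab1 replicate 2 gave 17.2. Ab2 gave 20.97 and 23.3 there, and the 4 summits lay within 14 bp. The 2 Ab1 libraries thus enclosed both Ab2 values in this region.

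The third, chr8:3852375-3854145, was a broad region of 1771 bp with folds of 19.5 and 17.2 with Ab1 and 18.2 and 17.1 with Ab2, and summits spread over 234 bp. Its neighbouring shared region lay 1.29 kb away. The next was chr13:32211997-32212962, at 21.5 and 18.97 with Ab1 and 17.3 and 17.0 with Ab2. In chr19:4297727-4298293 the order of antibodies was the other way round, with 17.2 and 16.2 with Ab1 and 20.2 and 21.4 with Ab2. All 4 summits of that region fell within 22 bp. The differences between antibodies in single regions were not tested, since each library scales its own folds.

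The remaining 5 had lowest folds of 15.2 to 16.1. They were chr18:6618969-6619821, with summits within 19 bp, chr16:37089491-37090669, chr12:17234567-17235382, chr10:38609135-38609860 and chr14:24169646-24170282. The region of chromosome 16 alone among the 10 held more than 1 peak in a list, with 2 in each Ab2 list, and lay 1.17 kb from another strongly enriched region. The regions of chromosomes 12 and 14 lay far inside their chromosomes, at 43.0% and 49.4% of the length, with the nearest strongly enriched region 960 and 1072 kb away. Strength in all libraries therefore occurred both in crowded and in empty surroundings.

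**Figure D2:**
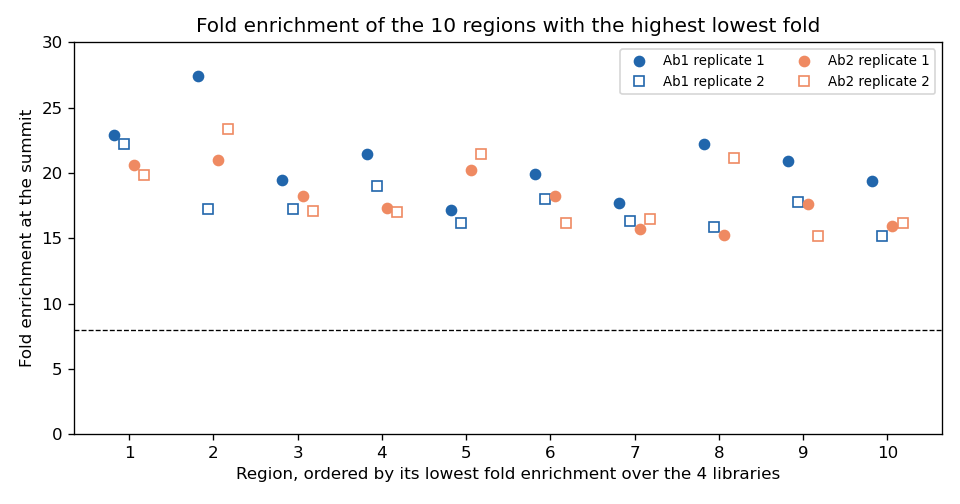
Fold enrichment at the summit (vertical axis) of the 10 strongly enriched regions with the highest lowest fold, in that order (horizontal axis), with 1 point per library; filled circles are replicate 1, open squares replicate 2, blue Ab1, orange Ab2 and the dashed line the fold of 8. All points lie at 15.2 or above, and the libraries change order between regions, with Ab1 replicate 1 highest at 27.4 in the second region and Ab2 replicate 2 highest at 21.4 in the fifth.

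Strongly enriched regions were longer than the other shared regions. Their median length was 729 bp (quartiles 576 and 1011 bp, range 352 to 3025 bp), against 592 bp (454 and 809 bp, range 216 to 3986 bp). Together they covered 987 kb. In each library the peaks within them were longer in sum, with medians of 707 and 614.5 bp with Ab1 and 494.5 and 435 bp with Ab2. The other shared regions had 561 and 461 bp with Ab1 and 317 and 253 bp with Ab2. The ratio of medians was 1.26, 1.33, 1.56 and 1.72 in the same order, a mean of 1.47 ± 0.211 (SD, n = 4 libraries). Both groups were separated in the same direction in 4 of 4 libraries. Length comes from the same pile-up as the fold, so this is a description without a test.

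Length rose with the number of lists at the fold of 8 only up to a point. Shared regions that reached it in no list had a median length of 545 bp, those with 1 list 625 bp, with 2 lists 664.5 bp, with 3 lists 741 bp and with all 4 lists 729 bp. Among strongly enriched regions the median was 701 bp for lowest folds of 8 to 9 and 712.5 bp for 9 to 10. It was 784 bp for 10 to 12, 900 bp for 12 to 15, and 726 bp in the 11 regions at 15 or above. Regions of 1500 bp or more made up 90 of the strongly enriched regions (7.79%) and 368 of the other shared regions (2.57%). The longest shared region of all was not among the strongly enriched ones.

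The longest strongly enriched region, chr10:47809098-47812122, spanned 3025 bp and combined length with a high fold and exact summits. Its folds were 18.6 and 16.0 with Ab1 and 14.1 and 17.4 with Ab2. The highest summits of the 4 lists fell within 22 bp, although the lists held 2, 3, 3 and 3 peaks there. Next came chr7:43656222-43658987 with 2766 bp, chr15:8467822-8470584 with 2763 bp, chr8:42802074-42804793 with 2720 bp and chr15:5316566-5319212 with 2647 bp. Their lowest folds were 8.70, 8.68, 11.3 and 13.2, so long regions occurred near the border as well as well above it.

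Most strongly enriched regions were simple, with exactly 1 peak in each list. This held for 904 of them, or 78.2% (75.7 to 80.5), and for 80.6% (79.9 to 81.2) of the other shared regions. Regions with several peaks were most frequent in the Ab2 lists, at 12.7 and 14.1% of the strongly enriched regions in replicates 1 and 2, against 10.6 and 9.26% of the other shared regions. In the Ab1 lists the shares were 3.20 and 8.74% in strongly enriched regions, against 2.37 and 8.45%. The difference averaged 2.02 percentage points with an SD of 2.03 over the 4 libraries, so it was no larger than its spread between libraries. Several peaks in all 4 lists at the same time were found in 11 strongly enriched regions (0.952%) and 44 of the other shared regions (0.307%).

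Where a strongly enriched region did hold several peaks, the second was well below the first. The fold of the second strongest peak was a median of 0.432 and 0.444 times that of the strongest with Ab1, and 0.514 and 0.548 times with Ab2. In the other shared regions with several peaks these ratios were 0.630, 0.700, 0.772 and 0.795. The choice of regions by their strongest peak favours this order. The summits of the 2 strongest peaks stood 803, 642, 657 and 591 bp apart in the strongly enriched regions, against 612, 554, 491.5 and 447 bp. A second peak that itself reached a fold of 8 was found in 8, 9, 23 and 23 strongly enriched regions, or 21.6, 8.91, 15.6 and 14.1% of those with several peaks in that list. In the other shared regions it was found in 13, 4, 18 and 6, or 3.82, 0.331, 1.19 and 0.452% of those with several peaks. The rule asks for a fold of 8 in the first peak of strongly enriched regions only, so these shares are a description.

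The strongly enriched region with the most peaks was chr7:43656222-43658987, with 12 over the 4 lists, followed by chr9:41861120-41863528 and chr10:47809098-47812122 with 11 each. Other shared regions held up to 14 peaks. In the region of chromosome 7 the lists placed 2, 3, 4 and 3 peaks, and the highest summit of Ab2 replicate 1 lay apart from the others, with a span of 559 bp. The region of chromosome 9 had folds of 10.4 and 12.96 with Ab1 and 10.2 and 9.10 with Ab2, and summits within 55 bp despite 2, 3, 3 and 3 peaks. Several peaks thus did not always go with scattered summits.

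The 4 libraries placed their summits closer together in strongly enriched regions. The outermost of the 4 summits lay a median of 51 bp apart (quartiles 35 and 73 bp), against 84 bp (53 and 149 bp) in the other shared regions. In 86.5% (84.4 to 88.4) of strongly enriched regions all 4 summits lay within 100 bp, against 59.4% (58.6 to 60.2). Spans over 300 bp were found in 35 strongly enriched regions (3.03%) and 10.97% of the other shared regions. As a share of the region's length, the span was a median of 6.90% against 15.4%. The span narrowed with each further list at the fold of 8, with medians of 95, 80, 69, 62 and 51 bp for none, 1, 2, 3 and 4 lists.

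The closer summits were seen between each pair of libraries. Median distances between 2 libraries were 23 to 28 bp in strongly enriched regions and 35 to 44 bp in the other shared regions. The pair of Ab1 libraries stood 23 bp apart in strongly enriched regions and the pair of Ab2 libraries 26 bp, against 35 and 44 bp in the other shared regions. Libraries of different antibodies stood 23 to 28 bp apart in strongly enriched regions, so summits of separate antibodies lay about as close as those of one antibody. Among regions with exactly 1 peak per list, the span was 50 bp in strongly enriched regions and 78 bp in the other shared regions. The span was also compared within classes of length, strongly enriched regions against the other shared regions. Below 500 bp the medians were 42.5 and 67 bp, from 500 to below 750 bp they were 49 and 87 bp, from 750 to below 1000 bp 51.5 and 116 bp, and at 1000 bp or more 61.5 and 186.5 bp. A summit is drawn from fewer fragments where the fold is lower, and the part of that in the wider spans was not tested.

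**Figure D3:**
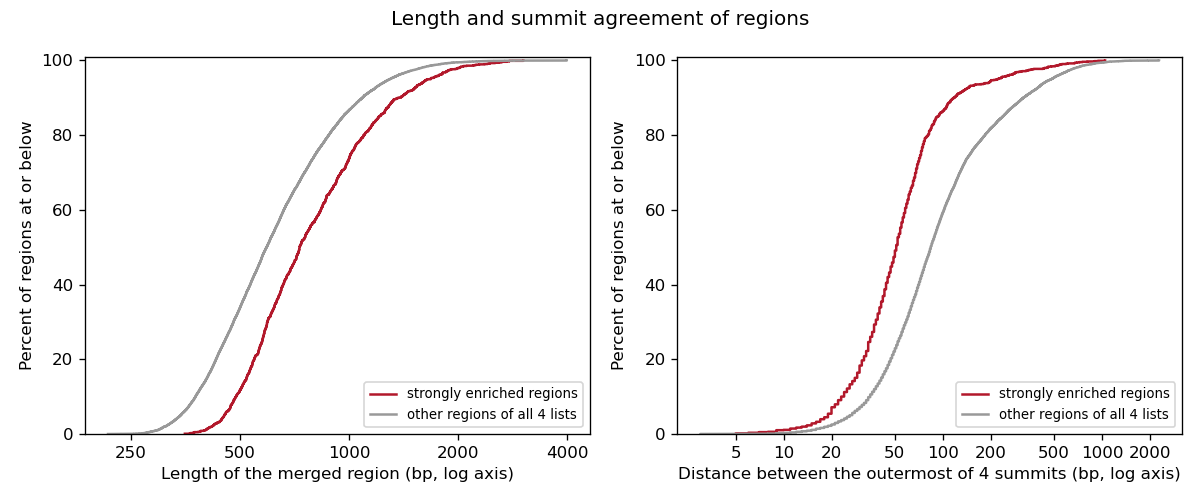
Cumulative percent of regions (vertical axes) by length of the merged region (left, bp, log axis) and by the distance between the outermost of the 4 summits (right, bp, log axis), for strongly enriched regions (red) and other shared regions (grey). The red curve lies to the right for length, with medians of 729 against 592 bp, and to the left for summit distance, with medians of 51 against 84 bp.

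In the most exact of the strongly enriched regions all 4 summits fell within a few bases. Among the other shared regions the narrowest span was 3 bp. In chr3:33255106-33255647 and in chr14:23097177-23097831 they spanned 5 bp, and in chr13:41682824-41683222 they spanned 6 bp. These were regions of modest fold, with lowest values of 8.60, 8.58 and 8.53, and of 542, 655 and 399 bp. Summits of the first fell at 33255419 and 33255417 with Ab1 and at 33255422 and 33255417 with Ab2. The highest folds were thus not needed for close agreement.

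In the 3 strongly enriched regions with the widest spans, 1 library stood apart, and in each it was Ab2 replicate 1. The region chr20:37486976-37488565 had a span of 1045 bp, but without that library the summits spanned 49 bp. Spans were 944 bp in chr2:39275839-39277377 and 894 bp in chr17:6396368-6398398, and 50 and 24 bp without it. All 3 regions held several peaks in the list of Ab2 replicate 1, with 2, 2 and 4. Of the 35 strongly enriched regions with spans over 300 bp, 23 held several peaks in at least 1 list, and 12 held 1 peak in each list. Ab2 replicate 1 was the library farthest from the rest in 19 (54.3%), against 470 of 1571 (29.9%) of the other shared regions with such spans. The other 3 summits lay within 100 bp in 24 of the 35 (68.6%), against 679 of 1571 (43.2%).

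Peaks of Ab1 were longer than those of Ab2 in strongly enriched regions, and also in the other shared regions, where the median summed lengths were 561 and 461 bp with Ab1 and 317 and 253 bp with Ab2. In strongly enriched regions the geometric mean of the median summed length was 1.42 times as large in the Ab1 as in the Ab2 libraries, and both Ab1 libraries exceeded both Ab2 libraries. A two-sided exact permutation test gave p = 0.333, which no arrangement of 2 against 2 libraries can go below. Fragments at the summit were also more numerous with Ab1, with medians of 77 and 83 against 41 and 35 with Ab2, and their part in the difference was not tested.

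Strongly enriched regions lay on all 20 chromosomes in numbers that followed those of the other shared regions. Chromosome 13 held the most, 95, followed by chromosome 17 with 72 and chromosomes 5 and 8 with 66 each. Chromosome 12 held the fewest, 36. Per Mb, chromosome 13 had 2.07 strongly enriched regions and chromosome 14 had 0.858, where all chromosomes together had 1.21. As a share of the shared regions of a chromosome, however, they varied only between 5.79% (4.21 to 7.91) on chromosome 12 and 8.78% (6.96 to 11.01) on chromosome 5. Chromosome 13 stood at 8.18% (6.73 to 9.89). The 95% Wilson interval of 0 of 20 chromosomes left out the overall share of 7.45%. Chromosome 4, named in the identifier of the protein's gene, held 61, or 8.20% (6.44 to 10.4).

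**Figure D4:**
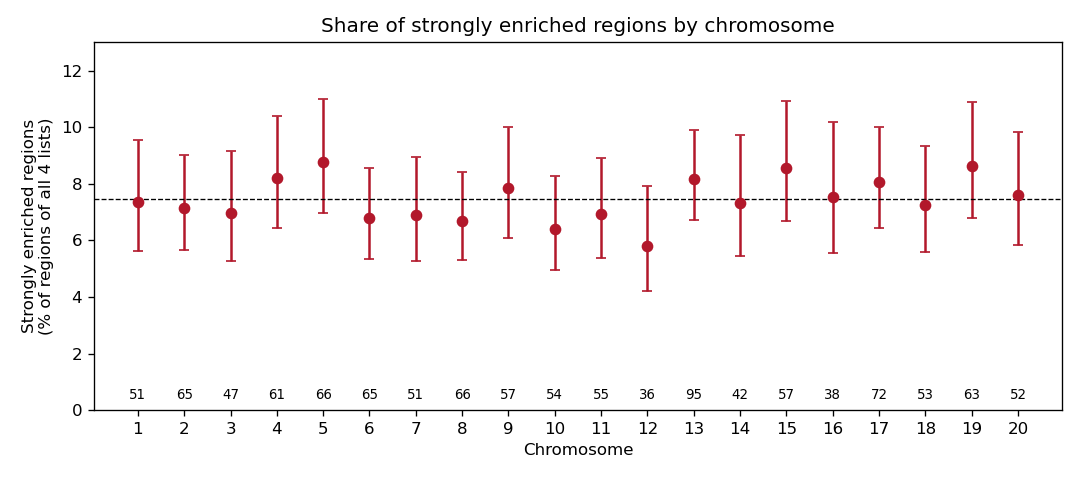
Strongly enriched regions as a percent of all shared regions (vertical axis) on each chromosome (horizontal axis), with 95% Wilson intervals and the number of strongly enriched regions above the axis; the dashed line is the overall 7.45%. All 20 intervals include the line, from 5.79% on chromosome 12 to 8.78% on chromosome 5.

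Along the chromosomes, strongly enriched regions had nearly the same placement as the other shared regions. Of the 1146 on chromosomes, 71.8% (69.1 to 74.3) lay in the outermost 20% at either end, against 70.4% (69.7 to 71.2) of the other shared regions. Cut into 10 equal parts, the chromosomes held 22.3 and 19.5% of strongly enriched regions in the first and the last part, against 20.4 and 21.1%. The part just past the middle held 15 of them, or 1.31%, against 2.16%. The share in the outer parts was 69.8, 70.9, 71.2, 71.8 and 71.8% for regions that reached the fold of 8 in none, 1, 2, 3 and 4 lists. The share varied by chromosome, and was lowest on chromosome 13, with 36.8% of its strongly enriched regions in the outer parts. It was highest on chromosome 4, with 90.2%, and on chromosome 16, with 89.5%.

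Strongly enriched regions had another shared region nearby somewhat more often. The nearest other shared summit was a median of 5.93 kb away (quartiles 2.26 and 18.5 kb), against 7.97 kb (2.56 and 21.1 kb) for the other shared regions. For regions that reached the fold of 8 in none, 1, 2, 3 and 4 lists, this median was 8.49, 8.24, 6.57, 6.40 and 5.93 kb. Regions with 2 or 3 lists at the fold of 8 were thus nearly as close to a neighbour. Within 10 kb, 61.1% (58.2 to 63.9) had such a neighbour, against 56.0% (55.2 to 56.8). The class of 2 to 5 kb showed the widest gap, with 23.6% (21.2 to 26.1) against 19.5% (18.8 to 20.1). Up to 1 kb the shares were 6.28% (5.02 to 7.84) and 5.90% (5.53 to 6.30). Where the strongest peaks of the 4 lists had to share 50% of the longest of them, 734 strongly enriched and 3684 other shared regions were left. The shares within 10 kb were then 23.7 and 23.0%, with nearly no difference. Regions that failed this overlap no longer counted as neighbours either, so these shares are not the same measure as those above. With a fold of at least 10 they were 59.2% (53.9 to 64.3) and 56.3%. Regions are not replicates and the intervals cover counting error only, so no test was made of these shares.

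The same order was seen in both parts of the chromosomes. In the outer parts 63.1% of strongly enriched regions had a shared neighbour within 10 kb, against 58.9%, and in the interior 56.0% did, against 49.1%. Measured from edge to edge of the merged regions, the shares within 10 kb were 62.6 and 57.7%. Within classes of length, the nearest other shared summit was a median of 9.72 and 9.49 kb away below 500 bp. From 500 to below 750 bp the medians were 7.97 and 8.00 kb. They were 4.64 and 6.945 kb from 750 to below 1000 bp, and 4.40 and 5.87 kb at 1000 bp or more. Closer neighbours by this median were thus seen only in regions of 750 bp or more. The neighbours themselves were ordinary in strength, with a median lowest fold of 4.8999 beside strongly enriched regions and 4.85 beside the others. Counting all merged regions, found in any list, a mean of 3.74 lay within 10 kb of a strongly enriched region and 3.49 within 10 kb of another shared region.

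Most strongly enriched regions lay far from each other. The nearest other strongly enriched region was a median of 139 kb away, and 25.2% (22.8 to 27.8) had one within 50 kb. Of the other shared regions, 24.0% (23.4 to 24.8) had a strongly enriched region within 50 kb, and the median distance was 150.3 kb. At 10 kb the shares were 9.60% (8.03 to 11.4) and 7.55% (7.12 to 7.99). Linked at 50 kb, 857 strongly enriched regions stood alone, and the other 289 formed 134 runs, of which 118 were pairs.

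**Figure D5:**
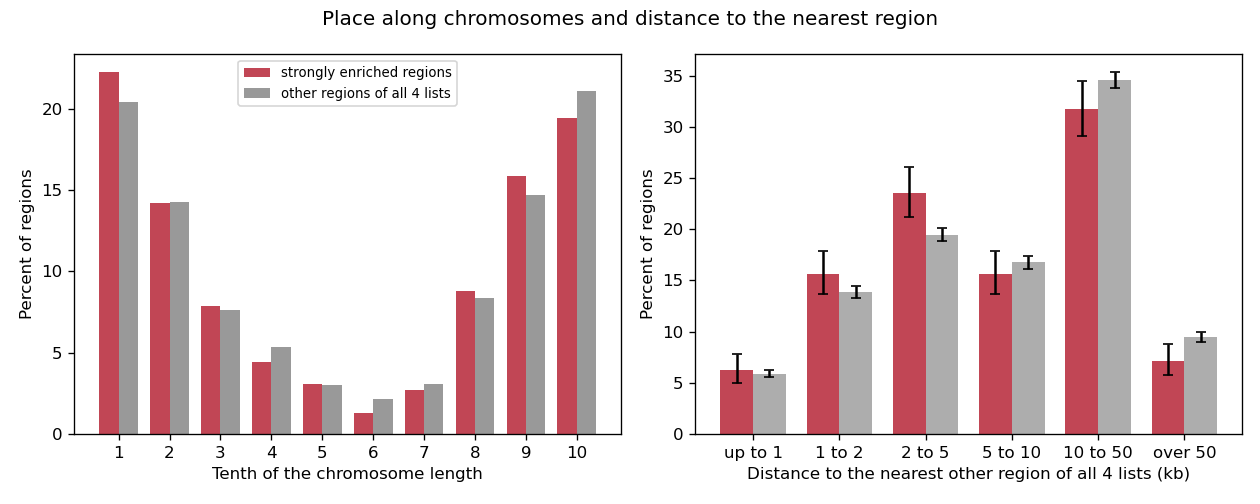
Left, percent of regions (vertical axis) in each of 10 equal parts of the chromosome length (horizontal axis); right, percent of regions (vertical axis) by distance to the nearest other shared region (horizontal axis, kb) with 95% Wilson intervals. Strongly enriched regions (red, left bar) and other shared regions (grey, right bar) have alike profiles along the chromosome, and the widest gap in distance is at 2 to 5 kb, with 23.6% against 19.5%.

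The closest strongly enriched neighbours stood at most 1013 bp apart. On chromosome 19, chr19:45041643-45042231 and chr19:45042301-45042884 had summits 758.5 bp apart and folds of the same order. The first had 11.7 and 11.9 with Ab1 and 9.16 and 11.1 with Ab2, and the second had 12.4 and 9.90 with Ab1 and 11.8 and 12.7 with Ab2. On chromosome 10, chr10:49253652-49255275 and chr10:49255544-49256019 stood 826 bp apart. Their folds were 18.4 and 18.6 in Ab1 replicate 1, 12.1 and 13.5 in Ab1 replicate 2, 14.7 and 14.4 in Ab2 replicate 1, and 10.4 and 8.96 in Ab2 replicate 2. The order of the libraries was the same in both, and was also that of the medians over all strongly enriched regions.

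The third closest pair, 1013 bp apart, belonged to the largest run. This run held 5 strongly enriched regions within 44.9 kb of chromosome 17. It began at chr17:5443962-5444914, which was also the region closest to the border of the rule. It went on with chr17:5461042-5461561, the pair chr17:5463379-5464052 and chr17:5464177-5465446, and chr17:5488841-5489460. The downstream one of this pair was the strongest of the run, with folds of 13.5 and 12.3 with Ab1 and 9.71 and 13.6 with Ab2, and the lowest folds of the 5 were 8.01 to 9.71. None of the 5 was among the 10 regions with the highest lowest fold.

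At the other extreme, chr16:17512308-17512997 lay 9014 kb from the next strongly enriched region and 481 kb from any shared region, at 46.3% of the length of chromosome 16. Its folds were 14.3 and 10.6 with Ab1 and 11.99 and 8.05 with Ab2.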

How the data were processed

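Binding of GLYMA.04G093300 was mapped by ChIP-seq in 2 Ab1 and 2 Ab2 libraries with 2 input libraries, grouped and numbered by their titles. The submitters' processing notes list Bowtie 0.12.7 and MACS2 but no genome build. Each deposited list holds the intervals of 1 library in narrowPeak layout. The fold enrichment (a ratio), the −log10 p and q and the score of each peak were computed by the authors' peak caller. All deposited peaks had a −log10 q above 2, and the score entered no result.

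Lists were merged with Python 3.11.15, pandas 2.3.3 and NumPy 2.4.6 where intervals shared at least 1 base. The strongest peak of a list gave a region's fold and summit. Positions use the last peak of a chromosome as its end. Fragments and background at the summit were recovered with SciPy 1.17.1 from fold and −log10 p, taking 1 added to both fragments and background in the ratio and an upper Poisson tail for p, with a background of at least 1. They were whole within 0.001 for 100% of peaks, in Ab1 replicate 2 after division by a pile-up scale of 0.881, and for 0.410% of its peaks without it. The names of its peaks also hold the word "cat", unexplained in the labels. Depth in reads is unknown, and medians over all peaks were 26, 35, 19 and 18 fragments in Ab1 replicates 1 and 2 and Ab2 replicates 1 and 2. PCR duplicates are not told apart, so Wilson intervals (95%) cover counting error only.

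The members, measures and named regions were chosen with earlier results of these data known. Named were the 10 regions with the highest lowest fold, the longest, those with the most peaks, the narrowest and widest spans, both sides of the threshold, the closest pairs, the largest run, the most isolated region, the strongest on scaffolds and those short in 1 list. The design text gives each biological replicate both antibodies, so that replicate numbers pair libraries; deviations of log2 fold (computed from the deposited ratio) correlated at r = 0.342 between same-numbered libraries over the 1156 regions, which are not independent. Scripts were tested on simulated lists. Gene assignment and sequence were not analysed here.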

Additional observations from a re-analysis of the deposited data

How the results depend on the processing

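Of 109 alternatives, 70 kept a result within its spread or side, 39 moved it and 0 were marked as reversed. A reversal could be marked only for the length, summit span and antibody ratios and the difference in several peaks, not for counts or shares. The number of strongly enriched regions, 1156, became 3682 and 345 with a fold of at least 6 and 10, 552 as the strongest 10% in every list and 734 where the strongest peaks of the lists shared 50% of the longest of them, and 1175 to 1656 without 1 library. The summit span ratio, 0.607, was 0.663 with a fold of 6, 0.654 with a −log10 q of at least 5, 0.654 with lists of equal length, 0.708 with the 50% overlap and 0.641 with 1 peak per list (0.588 to 0.627 without 1 library). The share with a shared neighbour within 10 kb, 61.1%, was 54.8% with the stricter q, 54.0% with equal lists, 23.7% with the 50% overlap, 56.0% in the interior, 45.5% at 5 kb and 62.2 to 70.9% without 1 library. Beside these stood 49.3, 47.9, 23.0, 49.1 and 39.2% of the other shared regions. The 50% overlap, which also removed regions as neighbours, left nearly no difference. The share with a strongly enriched neighbour within 50 kb, 25.2%, was 56.7, 7.33, 12.6 and 17.6% with a fold of 6, a fold of 10, the strongest 10% and the 50% overlap, against 54.9, 8.20, 12.8 and 16.1% of the others. With a fold of 10 and the strongest 10% it thus lay below that of the others, the other way round from 25.2 against 24.0%. It was 14.7% at 20 kb, 9.60% at 10 kb and 25.9 to 35.5% without 1 library. The outermost 10% at either end held 41.7%, against 41.5% of the others. Recovery of Ab1 regions in Ab2, 46.8%, was 53.1 and 40.9% with a fold of 6 and 10, 40.9% from replicate 1 to replicate 2 and 20.1 to 67.1% without 1 library, the lowest without Ab1 replicate 2. Recovery of Ab2 regions in Ab1, 82.5%, was 85.8 and 77.2%, 73.7% from replicate 2 to replicate 1, and 54.2 to 97.9%, the lowest without Ab2 replicate 2. Beside the 20.1 and 67.1% stood 9.05 and 19.8% of all shared regions, and beside the 54.2 and 97.9% stood 16.0 and 44.1%. For none of these changes was the cause tested. With a list left out a region has fewer lists to pass. Leaving out 1 library gave length ratios of 1.51 to 1.57, differences in several peaks of 1.05 to 2.92 points, outer shares of 71.5 to 72.3% and antibody length ratios of 1.32 to 1.53. Blocked by replicate number, the replicate block left the antibody length ratio at 1.42 (p = 0.5 by exact sign flips, below which 2 pairs cannot go), and no call changed. The stricter q and equal lists left the number at 1156. Every strongly enriched region had a −log10 q of at least 14.8 at its strongest peak in each list. A cut at 5 could thus not drop these peaks. The alternatives of all merged regions, of the chromosome parts, of edge distances and of 10 kb between strongly enriched regions were chosen after seeing the data. Fragments behind a summit were fewest in Ab2, with medians of 41 and 35 in strongly enriched regions, and their part in the placing of summits was not tested.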

Other observations

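Of the strongly enriched regions, 10 lay on 4 scaffolds outside the 20 chromosomes, among 83 shared regions there. The strongest, scaffold_32 from 61695 to 62149, had folds of 14.4 and 15.2 with Ab1 and of 17.2 and 14.0 with Ab2, on 98, 105, 67 and 44 fragments. A second on scaffold_32, from 50764 to 51623, had 16.5 and 11.9 with Ab1 and 11.5 and 11.1 with Ab2. The third, scaffold_21 from 3385416 to 3386086, had 12.4 and 13.2 with Ab1 and 10.9 and 15.5 with Ab2. Summits in these 3 regions spanned 26, 25 and 63 bp.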
